A study of Mus musculus with 6 samples.

Results

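The genes examined here encode the subunits of the 5 oxidative phosphorylation complexes and some of the factors that assemble complex I. They were chosen by gene symbol: all symbols that begin with Nduf (complex I), Uqcr (complex III), Cox4 to Cox8 (complex IV) or Atp5 (complex V), together with Sdha, Sdhb, Sdhc and Sdhd (complex II). This gave 90 of the 18193 genes measured: 44 in complex I, 4 in complex II, 8 in complex III, 17 in complex IV and 17 in complex V. Each gene was read by its probe set of highest mean signal, a probe set being a group of short array probes for the same transcript. Cox7b had no probe set that names it alone and was not analysed here, and the same held for 8 symbols of the Nduf family, among them Ndufs6 and Ndufa11. Ndufa4, now placed in complex IV by its biochemistry, was kept under complex I by its symbol.

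The cells were germinal centre B cells, the dividing B cells that form in the spleen after immunisation and are selected for antibodies of higher affinity. They were taken with magnetic beads from mice immunised with sheep red blood cells, in 2 genotypes. ImHABCL6 mice (3 arrays) carry a tagged Bcl6 driven by a promoter of the immunoglobulin heavy chain locus, and ImHABCL6/Uchl1 mice (3 arrays) carry a Uchl1 transgene on top of it, so both groups share the Bcl6 allele and the immunisation. The promoter of the Uchl1 transgene, the age of the mice and the share of cells in which either allele is active are not given in the sources used here. The comparison asks how the Uchl1 transgene, which encodes a deubiquitinating enzyme, alters gene expression in these cells.

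In the inner mitochondrial membrane, complexes I and II pass electrons from NADH and succinate to ubiquinone, complex III passes them on to cytochrome c, and complex IV passes them to oxygen. Complexes I, III and IV pump protons, and complex V, the ATP synthase, uses the returning protons to make ATP. Nuclear genes encode most subunits, including all of those measured here, and dividing germinal centre B cells are known to rely on this pathway for much of their ATP.

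Values are log2 expression levels as deposited, so a difference of 1 is a doubling, and all differences are ImHABCL6/Uchl1 minus ImHABCL6. Uchl1 itself read between 5.0 and 5.02 in the ImHABCL6 arrays and between 5.87 and 6.02 with the transgene, as the labels have it. This was 1.92-fold higher, at levels below the median of all genes (6.32), and was not called after adjustment (limma adjusted p = 0.638). Germinal centre markers were bright in both groups, with a mean over 9 measured markers of 10.53 ± 0.07 against 10.55 ± 0.32 (SD, n = 3 each). Among these markers is Bcl6 (11.14 against 11.38), which both groups carry as a tagged allele, so its level alone does not identify the cells. T cell markers were dim at 5.47 against 5.51. The mean of 12 measured red-cell precursor markers was high, between 10.25 and 11.23 in the ImHABCL6 arrays and between 8.67 and 10.62 in the ImHABCL6/Uchl1 arrays, with 11 of the 12 lower in ImHABCL6/Uchl1 cells. No red-cell marker was at 0, and the dimmest was Hba-a1. ImHABCL6/Uchl1 replicate 2 stood apart: its levels spread less (SD over genes 2.38, against 2.49 to 2.56 on the other arrays), and its 90th percentile was 9.94, against 10.12 to 10.23. The number of arrays, 3 per genotype, limits the precision of every difference, and p-values reflect only the spread between these 6 arrays.

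Most oxidative phosphorylation genes read slightly lower in ImHABCL6/Uchl1 cells, but no gene passed the test. Of the 90 members, 72 had a difference below 0, against 8995 of all 18193 genes (49.4%), and their median was -0.13 (1.09-fold lower), against 0.00 over all genes. Bright genes as a class were also mostly below 0: in the 5 bands of mean level from 8 upward, 60.7% to 65.7% of all genes were, with medians of -0.08 to -0.02. In the band of 10 to 11, 21 of 22 members were below 0 (95.5%, median -0.17), against 64.9% of all genes (median -0.07), and from 13 upward 4 of 6 (66.7%, median -0.02), against 60.7% (median -0.02). The middle 50% of members lay between -0.21 and -0.03, and the median standard error of a member was 0.17, larger than the median difference itself. In limma's moderated test with Benjamini-Hochberg adjustment over all genes at 0.05, 0 members were called, as were 0% of all genes, and the smallest adjusted p of a member was 0.983. At an unadjusted p under 0.05, 1 member (1.11%) was lower and 0 were higher, fewer than the background of 4.94% of all genes (3.85% lower and 1.09% higher). The single member was Cox6b2.

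The complexes were not shifted alike. Complex V had all 17 members below 0 with a median of -0.14, complex III 7 of 8 with a median of -0.15, and complex I 35 of 44 with a median of -0.13. Complex II had all 4 members below 0 with a smaller median of -0.07, but 2 of 4 after quantile normalization or without ImHABCL6 replicate 1, and none with array weights (median 0.03). Complex IV was split, with 9 of 17 below 0 and a median of -0.03. Its members also lay at other levels: 8 of 17 had a mean level under 8 and 7 had one of 12 or more, against 6 and 7 of 44 in complex I. These are descriptions: members share their 6 arrays and are not replicates of a complex, and in bulk samples fewer cells of a type and less RNA per cell cannot be told apart.

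**Figure D1:**
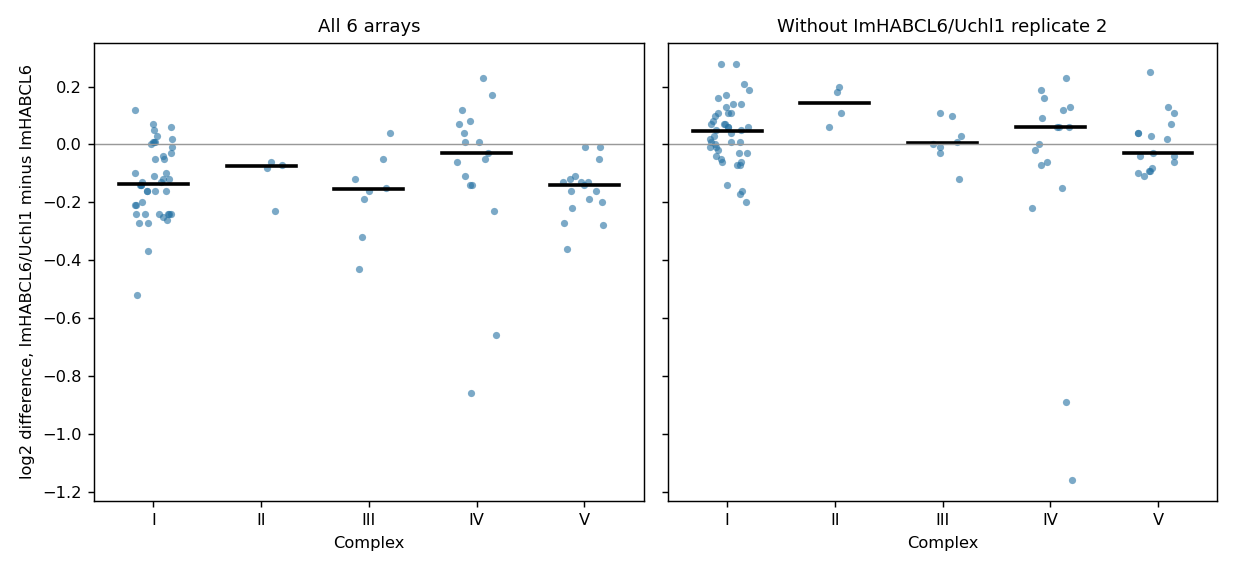
Log2 difference (ImHABCL6/Uchl1 minus ImHABCL6, vertical axis) of each of the 90 members by complex, from all 6 arrays on the left and without ImHABCL6/Uchl1 replicate 2 on the right; each point is a gene and each bar the median of a complex. With all arrays the medians lie between -0.15 and -0.03, and without that array between -0.03 and 0.15.

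The groups seldom separated. For 4 members (Atp5h, Atp5k, Cox6b2 and Cox8b) the highest ImHABCL6/Uchl1 array lay below the lowest ImHABCL6 array, and for 1 (Cox7b2) the groups were separated the other way. Of all genes 5.49% were separated in the lower and 3.95% in the higher direction, against 4.44% and 1.11% of the members.

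A single array carried most of the shift. ImHABCL6/Uchl1 replicate 2 was the lowest of the 6 arrays for 75 of the 90 members (83.3%), against 27.9% of all genes. The members were brighter than most genes (median level 11.16, against 6.32), and the 27.9% was not taken at like level. That array was the lowest for 41 of 44 members of complex I, all 4 of complex II, 6 of 8 of complex III and all 17 of complex V. In complex IV it was the lowest for 7 of 17, or for 6 of 10 without the tissue forms. Relative to each gene's mean of 6 arrays, the members averaged 0.15, 0.13 and -0.08 in ImHABCL6 replicates 1 to 3 and 0.09, -0.34 and 0.06 in ImHABCL6/Uchl1 replicates 1 to 3. Both other ImHABCL6/Uchl1 arrays thus lay within the range of the ImHABCL6 arrays.

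Without that array, 36 of 90 members were below 0 and the median was 0.03. The medians were then 0.05 in complex I, 0.15 in complex II, 0.00 in complex III, 0.06 in complex IV and -0.03 in complex V. Quantile normalization of the deposited values left 64 members below 0 with a median of -0.07, and array weights, which gave the array the lowest weight (0.30), left 52 with a median of -0.03. With the mean of the red-cell markers as a covariate the median was -0.34, in a fit in which 16.6% of all genes had an unadjusted p under 0.05 and none was called.

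**Figure D2:**
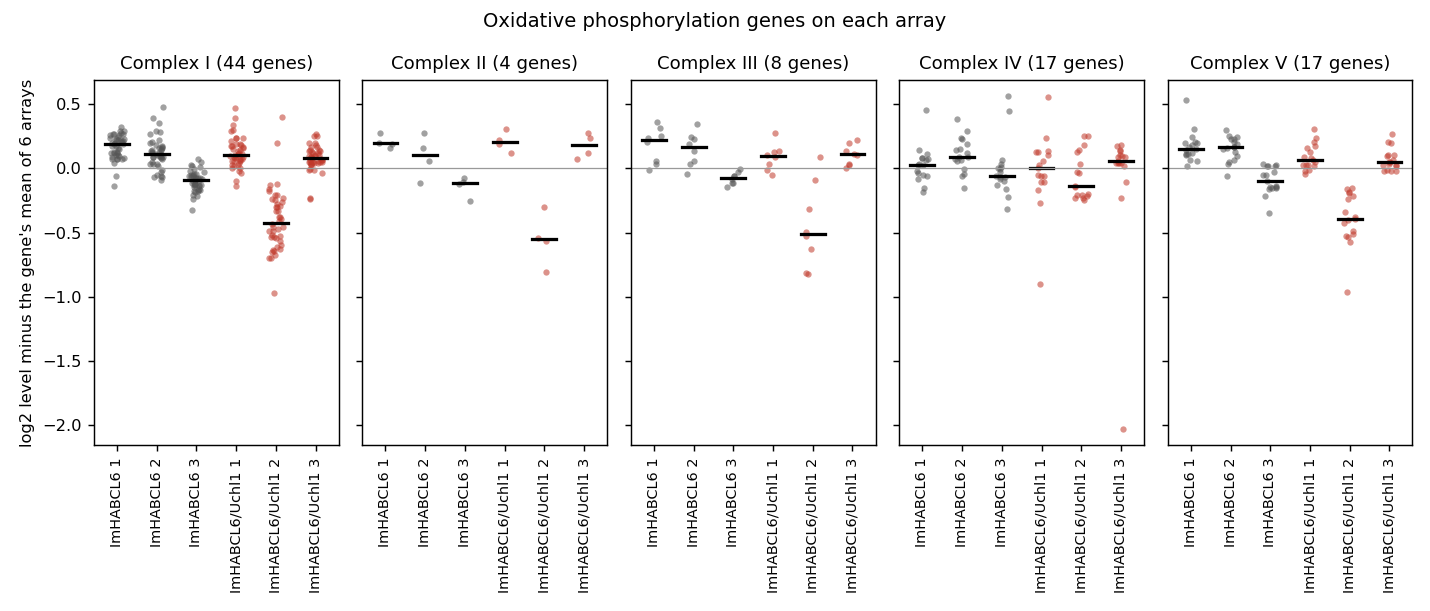
Log2 level of each member minus that gene's mean over the 6 arrays (vertical axis) on each array (horizontal axis), with a panel per complex; each point is a gene, grey for ImHABCL6 and red for ImHABCL6/Uchl1, and bars are medians. ImHABCL6/Uchl1 replicate 2 lies below the other arrays in complexes I, II, III and V and overlaps them in complex IV.

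The distance of that array from its own group was measured as its level minus the mean of ImHABCL6/Uchl1 replicates 1 and 3, a measure chosen after the values were seen and given with no test. Its median was -0.45 over the members (1.36-fold lower; 81 of 90 below 0) and 0.00 over all genes (49.9% below 0). On the same measure the median was 1.35 over the 12 red-cell markers and 0.92 over 5 platelet markers, with none of either below 0, and -0.20 over the 9 germinal centre markers. The red-cell mean on that array, 10.62, lay within the ImHABCL6 range of 10.25 to 11.23. ImHABCL6/Uchl1 replicates 1 and 3 had the lowest red-cell means of all arrays (8.67 and 9.96). The platelet mean was 8.96 on that array, against 7.92 to 8.82 in the ImHABCL6 arrays. By complex the median distance was -0.78 in complex II (1.71-fold lower), -0.66 in complex III (1.58-fold) and -0.51 in complex I (1.42-fold). It was -0.47 in complex V (1.39-fold) and -0.11 in complex IV (1.08-fold), or -0.25 in complex IV without its 7 tissue forms. Distances in complex IV also depended on the probe set. The bright probe sets of Cox5b (mean levels 11.47 to 13.21) ranged from -1.04 to -0.02. A dimmer Cox5a probe set gave -0.41, against -0.11 on the brightest, and a dimmer Cox6c one -0.02, against -0.26. After quantile normalization, which gives all arrays the same distribution, the median distance was -0.25 over the members. For complexes II, III, I, V and IV it was then -0.54, -0.43, -0.30, -0.33 and -0.11. ImHABCL6 replicate 3 showed a smaller distance of the same sign from the other ImHABCL6 arrays: -0.22 in the median, with 82 of 90 members below 0 (91.1%), against -0.05 over all genes (59.9%). That array was the highest for 10 of the 12 red-cell markers. The part of other cell types in these distances was not tested.

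Bright genes as a class were lower on ImHABCL6/Uchl1 replicate 2, so the members were set beside all genes of like level. Among genes with a mean level of 8 to 10, the median distance was -0.74 for 7 members and -0.30 for 3820 genes, and at levels of 10 to 11 it was -0.64 for 22 members and -0.28 for 1040 genes. It was -0.49 against -0.27 at levels of 11 to 12 (22 members, 578 genes), -0.28 against -0.23 at 12 to 13 (19 members, 252 genes) and -0.22 against -0.16 from 13 upward (6 members, 112 genes). Below a level of 8 it was near 0 for both, at 0.09 for 14 members and 0.10 for 12391 genes. The members' excess over genes of like level was therefore widest between levels of 8 and 11 and narrow above 12. Complex IV, whose median distance was smaller (-0.11, or -0.25 without its tissue forms), had no member in the bands from 8 to 11.

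**Figure D3:**
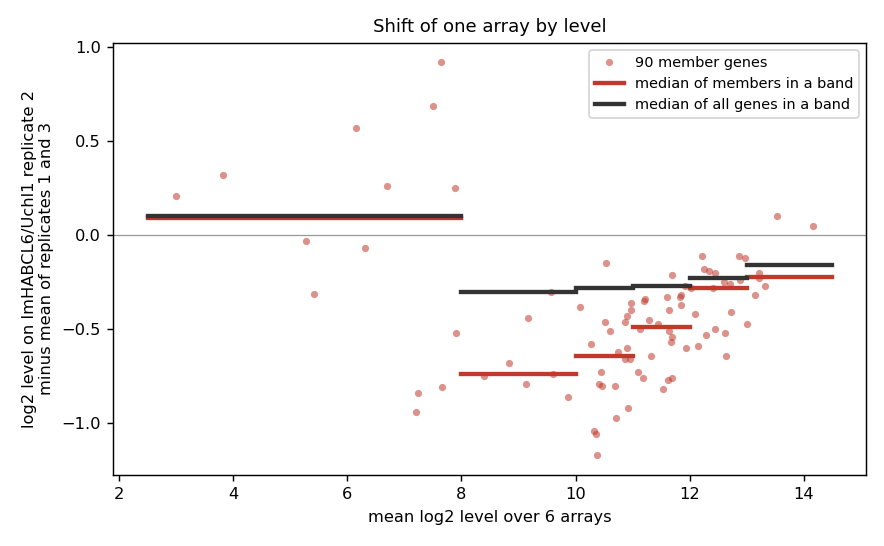
Log2 level on ImHABCL6/Uchl1 replicate 2 minus the mean of replicates 1 and 3 (vertical axis) against the mean log2 level over the 6 arrays (horizontal axis); points are the 90 members, and bars are medians in bands of level for the members (red) and for all genes (dark grey). At levels of 10 to 11 the members' median is -0.64 and that of all genes -0.28, while both lie near 0.1 below a level of 8.

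Promoter windows were searched because the members of complexes I, II, III and V moved together on that array. Of the 90 members, 74 had a window in the RefSeq table (assembly GRCm38.p6), from 250 bases before to 50 bases after a transcription start, and they had 79 windows. The letters searched, on both strands, were CGCANGCG (the motif of NRF1, a factor known to act on respiratory chain genes), CCGGAAGT (ETS factors such as GABP) and AAGATGGC (YY1). The NRF1 letters occurred in 30 of the 79 windows (38.0%), against 12.9% of the 18006 windows of all genes measured and 8.21% of all 32851 windows in the table. YY1 letters occurred in 10 (12.7%), against 3.39%, and ETS letters in 6.33%, against 5.85%. A match of letters is a description and not a binding site.

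The NRF1 letters were spread unevenly over the complexes. They stood in 11 of 18 windows of complex V (61.1%), 3 of 5 of complex III (60.0%) and 2 of 3 of complex II (66.7%). In complex I it was 13 of 41 (31.7%), and in complex IV 1 of 12 (8.33%), that of Cox6a1. Of these 12 windows, 4 were of complex IV forms limited to some tissues and held none. Without them it was 1 of 8 (12.5%), against 12.9% of the windows of all genes measured. The upstream windows of Sdhd, Cox6a1 and Cox6b2 are given as examples. Each is the 250 bases before the transcription start, 5′ to 3′ on the gene's strand with NRF1 matches in capitals. Sdhd, a membrane anchor, lies at chr9:50603850-50604099 (minus strand). It was chosen after its values were seen, for a large distance on ImHABCL6/Uchl1 replicate 2 (-1.04) among members with an NRF1 match. Its match was thus a condition of the choice. Atp5g1 and Ndufb2 had larger distances on that array (-1.17 and -1.06), and their windows held none of the 3 motifs. Cox6a1, the member of complex IV with a match, whose brightest probe set was not lower on that array, lies at chr5:115348959-115349208 (minus strand). Cox6b2, the member of smallest p, lies at chr7:4753095-4753344 (minus strand) and holds none of the 3 motifs.
Sdhd: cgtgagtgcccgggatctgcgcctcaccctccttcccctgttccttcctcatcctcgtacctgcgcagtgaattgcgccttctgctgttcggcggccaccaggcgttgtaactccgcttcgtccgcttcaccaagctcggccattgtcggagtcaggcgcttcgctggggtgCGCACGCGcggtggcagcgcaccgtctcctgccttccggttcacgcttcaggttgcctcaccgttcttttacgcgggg
Cox6a1: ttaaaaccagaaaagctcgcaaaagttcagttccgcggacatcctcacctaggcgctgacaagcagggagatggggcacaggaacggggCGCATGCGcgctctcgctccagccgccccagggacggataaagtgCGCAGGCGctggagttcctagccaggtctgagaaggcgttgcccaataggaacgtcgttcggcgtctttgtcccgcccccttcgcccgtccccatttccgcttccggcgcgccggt
Cox6b2: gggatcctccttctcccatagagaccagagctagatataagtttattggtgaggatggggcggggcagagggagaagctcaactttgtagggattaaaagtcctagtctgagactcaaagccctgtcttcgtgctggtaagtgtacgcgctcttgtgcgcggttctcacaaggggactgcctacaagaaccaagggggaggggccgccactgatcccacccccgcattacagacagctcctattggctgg
The match in Sdhd begins 78 bases before the start, and those in Cox6a1 begin 161 and 116 bases before it. The matches did not sort the members by their values: the median distance on ImHABCL6/Uchl1 replicate 2 was -0.50 for 27 members with the letters and -0.43 for 47 members with a window without them, and the median differences between genotypes were -0.15 and -0.12.

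**Figure D4:**
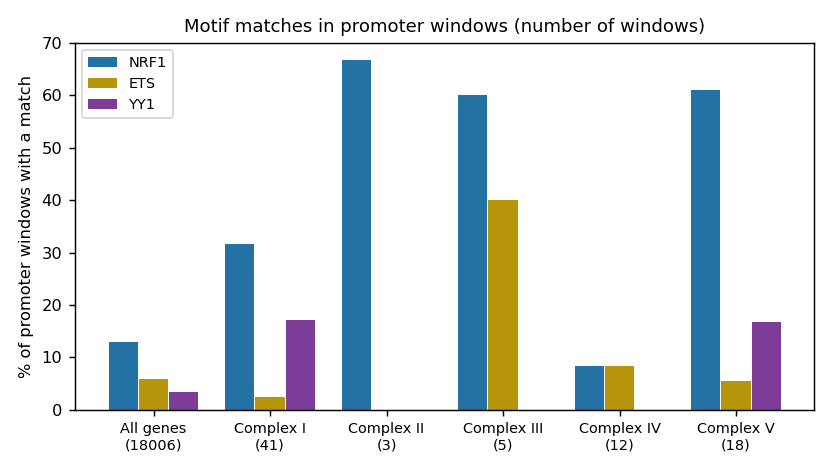
Share of promoter windows that hold the letters of NRF1, ETS or YY1 motifs (vertical axis, percent) for all genes measured and for each complex, with the number of windows in brackets. The NRF1 bar is at 12.9% for all genes, at 31.7% to 66.7% for complexes I, II, III and V, and at 8.33% for complex IV. There 12 windows were counted, 4 of them of tissue forms.

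Complex I takes electrons from NADH in an arm that reaches into the matrix and pumps protons in an arm buried in the membrane. The matrix arm had 11 of 14 members below 0 and a median of -0.13, the membrane arm 16 of 20 and -0.12, and the complex I assembly factors 7 of 8 and -0.18. In the matrix arm, Ndufv1, the flavoprotein that accepts electrons from NADH, read 11.11, 11.10 and 10.90 in ImHABCL6 replicates 1 to 3 and 10.96, 10.37 and 10.98 in ImHABCL6/Uchl1 replicates 1 to 3. Its low array was ImHABCL6/Uchl1 replicate 2, and the groups overlapped. The difference was -0.27 (standard error 0.19, limma unadjusted p = 0.198) and -0.07 without that array.

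The other core subunits of the matrix arm had smaller differences. Ndufs3, a core subunit of the quinone-reducing part, differed by -0.25, Ndufs7 at the quinone site by -0.16, the large iron-sulphur subunit Ndufs1 by -0.13 and Ndufv2, the iron-sulphur partner of the flavoprotein, by -0.12. All of these were lowest on ImHABCL6/Uchl1 replicate 2. The iron-sulphur subunit Ndufs8 differed by 0.01 and was lowest on ImHABCL6 replicate 3. Ndufa9, an accessory subunit, differed by -0.14, with 10.09 on ImHABCL6/Uchl1 replicate 2 and 10.53 to 10.89 on the other arrays.

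In the membrane arm, the accessory subunit Ndufb9 had the smallest p of complex I. It read 11.89, 11.85 and 11.70 in the ImHABCL6 arrays and 11.49, 11.10 and 11.73 in the ImHABCL6/Uchl1 arrays. ImHABCL6/Uchl1 replicates 1 and 2 were below all ImHABCL6 arrays and replicate 3 was among them. The difference was -0.37 (standard error 0.18, limma unadjusted p = 0.0705, adjusted p = 0.998) and -0.20 without replicate 2. Its second bright probe set gave the same pattern, with 11.77, 11.93 and 11.69 against 11.45, 11.20 and 11.69.

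Ndufb2, another accessory subunit of the membrane arm, had the most negative difference in complex I. It read 10.65, 10.84 and 10.37 against 10.46, 9.39 and 10.44, and ImHABCL6/Uchl1 replicate 2 lay about 1 unit below the rest of its group. The difference was -0.52 (standard error 0.29, limma unadjusted p = 0.111) and -0.17 without that array. A second bright probe set differed by -0.46. Both of these have names ending in _a_at or _x_at, whose probes can match more than 1 transcript, and the only other probe set, a dimmer one, differed by 0.10. Ndufb8, a further accessory subunit, differed by -0.24 and by -0.06 without replicate 2.

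All 8 complex I assembly factors, proteins that help build the complex and leave it, were lowest on ImHABCL6/Uchl1 replicate 2, with a median distance of -0.75 from the rest of the group. Ndufaf6 read 7.39, 7.48 and 6.87 in the ImHABCL6 arrays and 7.67, 6.52 and 7.25 in the ImHABCL6/Uchl1 arrays. Ndufaf5 read 7.51, 7.60 and 7.03 against 7.48, 6.55 and 7.29. In both, ImHABCL6 replicate 3 was the lowest of its own group. Ndufaf8 was the member of complex I with the smallest p among those higher in ImHABCL6/Uchl1 cells, at 0.12 (limma unadjusted p = 0.499), with 10.63, 10.44 and 10.27 against 10.69, 10.26 and 10.76.

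Complex II, or succinate dehydrogenase, is also an enzyme of the tricarboxylic acid cycle, and its 4 genes differed by -0.23 to -0.06. Sdhd, a membrane anchor, read 10.52, 10.61 and 10.21 in the ImHABCL6 arrays and 10.55, 9.52 and 10.57 in the ImHABCL6/Uchl1 arrays. The low array was again ImHABCL6/Uchl1 replicate 2, with the other ImHABCL6/Uchl1 arrays inside the ImHABCL6 range. The difference was -0.23 (standard error 0.28, limma unadjusted p = 0.435) and 0.11 without that array. Its second probe set, on which ImHABCL6/Uchl1 replicate 2 was also lowest (7.26), differed by -0.06.

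The other genes of complex II had differences near 0. Sdha, the flavoprotein that oxidises succinate, differed by -0.08, the iron-sulphur subunit Sdhb by -0.07 and the second anchor Sdhc by -0.06. Sdhb read 11.39, 11.35 and 10.94 against 11.50, 10.65 and 11.31, and Sdhc read 9.41, 9.02 and 9.06 against 9.32, 8.57 and 9.41. A second Sdhc probe set differed by 0.05 and had no low array, with 8.53, 8.62 and 8.48 against 8.40, 8.61 and 8.76. A second bright Sdha probe set differed by -0.07 and was lowest on ImHABCL6/Uchl1 replicate 2 (10.29). With the mean of all its probe sets Sdha differed by 0.09. Without ImHABCL6/Uchl1 replicate 2 all 4 genes were above 0.

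Complex III passes electrons from ubiquinol to cytochrome c. Uqcr11, a small subunit, had the smallest p of the complex and read 11.28, 11.27 and 10.86 in the ImHABCL6 arrays and 10.96, 10.10 and 11.06 in the ImHABCL6/Uchl1 arrays. Replicates 1 and 3 of ImHABCL6/Uchl1 lay between the highest and the lowest ImHABCL6 arrays, and replicate 2 lay below all. The difference was -0.43 (standard error 0.26, limma unadjusted p = 0.143) and -0.12 without replicate 2.

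Uqcrq, another small subunit, read 11.03, 10.94 and 10.65 against 10.82, 9.90 and 10.93. Its difference was -0.32 and 0.00 without ImHABCL6/Uchl1 replicate 2. Its other probe sets were dim, and with suffixed probe sets left out the difference was 0.07. The core subunits Uqcrc1 and Uqcrc2 differed by -0.19 and -0.16, and the Rieske iron-sulphur protein Uqcrfs1, which takes the first electron from ubiquinol, by -0.12. These 3 were lowest on ImHABCL6/Uchl1 replicate 2, at 10.43, 10.91 and 10.38.

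The remaining members of complex III are small subunits. Uqcr10 differed by -0.15 and the hinge protein Uqcrh by -0.05. Uqcrb was the only member of the complex above 0, at 0.04, with 13.52, 13.49 and 13.53 against 13.48, 13.62 and 13.56. Its array order was not that of the other genes, with ImHABCL6/Uchl1 replicate 2 the highest. A dimmer probe set of Uqcrb was lowest on that array (10.02) and differed by -0.12.

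Complex IV, cytochrome c oxidase, hands electrons to oxygen, and several of its subunits have a widespread form and a form limited to some tissues. The 5 widespread forms differed by -0.14 to 0.01, with a median of -0.03. Cox4i1, the widespread form of regulatory subunit IV, read 13.21, 13.23 and 13.06 against 13.20, 12.90 and 13.25. Cox6a1 read 14.07, 14.15 and 14.22 in the ImHABCL6 arrays and 14.10, 14.19 and 14.20 in the ImHABCL6/Uchl1 arrays. Its difference was 0.01, with no low array. A second Cox6a1 probe set, however, was lowest on ImHABCL6/Uchl1 replicate 2 (11.87, against 12.19 to 12.23 on the other arrays).

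The remaining widespread forms and the single-form subunits lay between -0.14 and 0.08 apart from Cox7c. Cox8a differed by 0.01, Cox6b1 by -0.03 and Cox7a2 by -0.14. Among subunits with a single form, Cox5a differed by 0.08, Cox5b by -0.14 and Cox6c by -0.11. The groups overlapped for each of these genes.

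Cox7c, which encodes subunit VIIc, had the most negative difference of all members, and it rested on 1 array. It read 8.09, 8.02 and 8.08 in the ImHABCL6 arrays and 8.19, 7.82 and 5.61 in the ImHABCL6/Uchl1 arrays. ImHABCL6/Uchl1 replicate 3 was the low array, not replicate 2. The difference was -0.86 (1.81-fold lower, standard error 0.58, limma unadjusted p = 0.18, exact permutation p = 0.4) and -0.06 without replicate 3. A second, dim probe set was also lowest on that array, with 5.58, 5.32 and 5.24 against 5.71, 4.6 and 3.19. Dimmer probe sets of Atp5c1 (5.47) and Ndufab1 (3.76) were lowest on ImHABCL6/Uchl1 replicate 3 as well, while the brightest probe sets of these genes were not. The mean level of Cox7c, 7.64, was also far below the 11.85 to 13.21 of the other single-form subunits. Whether its probe sets read the main transcript was not tested.

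The tissue isoforms of complex IV are best known from muscle, testis or lung, and 3 of 7 were below 0. Cox6b2, the testis form of subunit VIb, read 7.64, 7.79 and 8.06 in the ImHABCL6 arrays and 6.60, 7.63 and 7.27 in the ImHABCL6/Uchl1 arrays. All ImHABCL6/Uchl1 arrays were below all ImHABCL6 arrays, the nearest by 0.01. The difference was -0.66 (standard error 0.26, limma unadjusted p = 0.0327, adjusted p = 0.983), and the exact two-sided permutation p was 0.1, the smallest that 3 arrays against 3 allow.

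The arrays of Cox6b2 ran in nearly the order of the red-cell precursor markers. The mean of those markers was 10.25, 10.78 and 11.23 in the ImHABCL6 arrays and 8.67, 10.62 and 9.96 in the ImHABCL6/Uchl1 arrays. With that mean as a covariate the Cox6b2 difference was -0.16. It was -0.38 without ImHABCL6/Uchl1 replicate 1 and -0.89 without replicate 2. The part of red-cell precursors in this difference was not tested beyond that covariate.

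Cox8b, a heart and skeletal muscle form, read 5.34, 5.50 and 5.30 against 5.16, 5.13 and 5.16, a difference of -0.23 (limma unadjusted p = 0.105) at a level below the median of all genes (6.32). Cox7b2, a testis form, read 2.95, 2.84 and 2.83 against 2.99, 3.24 and 3.08, a difference of 0.23 (limma unadjusted p = 0.12) at a level near the bottom of the array's range. Both were separated between groups. Of the other tissue forms, Cox8c differed by 0.17, Cox7a1 by 0.12, Cox4i2 by 0.04 and Cox6a2 by -0.06. Leaving out all 7 tissue forms, complex IV had 6 of 10 members below 0, a median of -0.04 and a median distance of -0.25 on ImHABCL6/Uchl1 replicate 2.

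**Figure D5:**
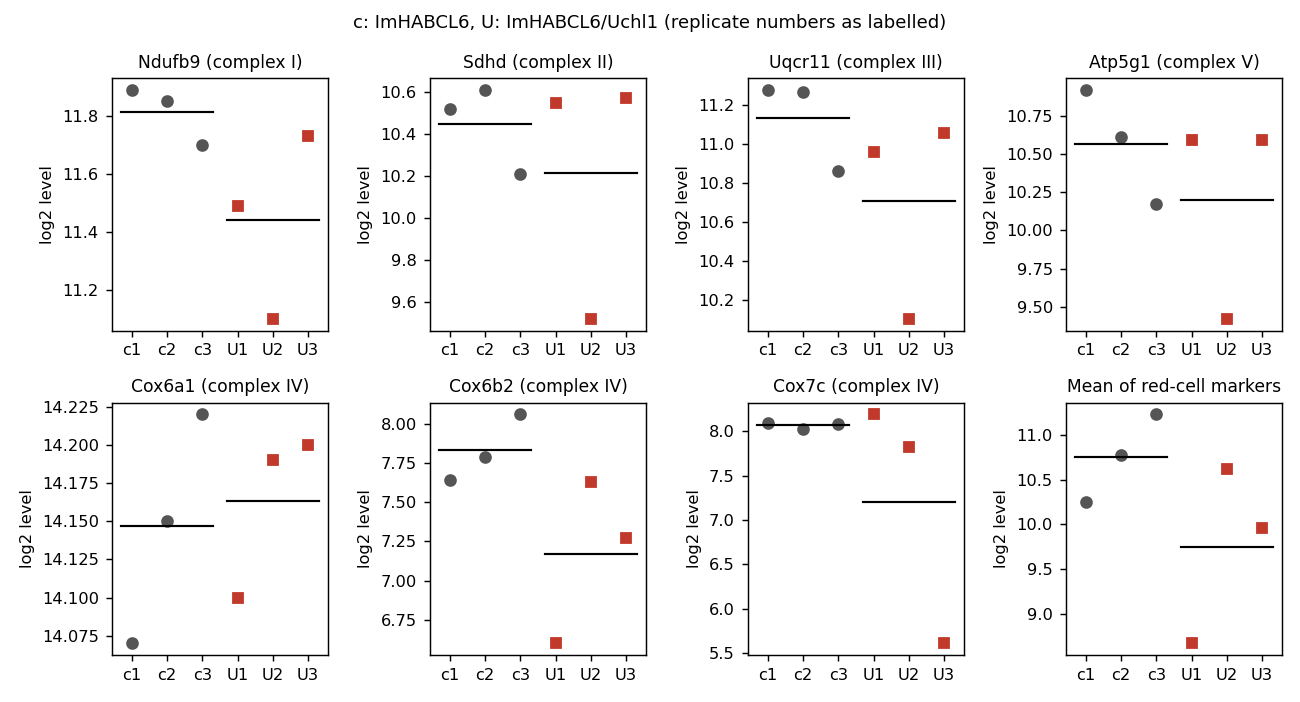
Log2 level (vertical axis, a separate scale in each panel) on each of the 6 arrays for 7 members and for the mean of the red-cell precursor markers; grey circles are ImHABCL6 (c), red squares ImHABCL6/Uchl1 (U), and lines are group means. U2 is the low array for Ndufb9, Sdhd, Uqcr11 and Atp5g1, Cox7c is low on U3, and Cox6b2 is low on U1, where the red-cell mean is also lowest (8.67).

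Complex V makes ATP in a catalytic head, turned by a rotor whose ring of c subunits lies in the membrane and held by a peripheral stalk. The 5 genes of the head and central rotor were all below 0, with a median of -0.20 that became 0.02 without ImHABCL6/Uchl1 replicate 2. Atp5b, the beta subunit that holds the catalytic sites, read 12.79, 12.85 and 12.64 in the ImHABCL6 arrays and 12.65, 12.14 and 12.67 in the ImHABCL6/Uchl1 arrays. ImHABCL6/Uchl1 replicates 1 and 3 stood at the lowest ImHABCL6 array and replicate 2 below it. The difference was -0.28 (standard error 0.18, limma unadjusted p = 0.152) and -0.10 without replicate 2. The alpha subunit Atp5a1 differed by -0.20, and the rotor subunits Atp5e, Atp5d and Atp5c1 by -0.27, -0.14 and -0.13.

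The 3 genes for the c subunit encode the same mature protein, and they differed from each other. Atp5g1 read 10.92, 10.61 and 10.17 in the ImHABCL6 arrays and 10.59, 9.42 and 10.59 in the ImHABCL6/Uchl1 arrays. Its distance on ImHABCL6/Uchl1 replicate 2, -1.17, was the largest of the 90 members. The difference between genotypes was -0.36 (standard error 0.34, limma unadjusted p = 0.315) and 0.03 without that array. Atp5g2 and Atp5g3 both differed by -0.01. Atp5g2 read 11.93, 11.67 and 11.28 against 11.86, 11.11 and 11.89 and was lowest on the same array.

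The peripheral stalk and the small membrane subunits had narrower differences. Atp5h, stalk subunit d, read 13.04, 13.07 and 13.00 against 12.95, 12.82 and 12.95, a difference of -0.13 (limma unadjusted p = 0.31). Atp5k, subunit e of the membrane part, read 12.46, 12.63 and 12.48 against 12.43, 12.23 and 12.43, a difference of -0.16 (limma unadjusted p = 0.259). Both were separated between groups by small margins on these, their brightest probe sets. A second Atp5h probe set was also separated (lowest ImHABCL6 array 12.31, highest ImHABCL6/Uchl1 array 12.28). The other Atp5k probe sets overlapped, with a lowest ImHABCL6 array of 11.90 and 11.99 and a highest ImHABCL6/Uchl1 array of 11.91 and 12.11.

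The membrane part of complex V, made of Atp5j2 (subunit f), Atp5k, Atp5l (subunit g), Atp5md and Atp5mpl, had 5 of 5 members below 0 with and without ImHABCL6/Uchl1 replicate 2, with medians of -0.16 and -0.08. Atp5j2 differed by -0.22 and Atp5md by -0.16. These counts rest on the brightest probe sets. A second bright Atp5j2 probe set read 12.02, 12.11 and 11.81 against 12.12, 11.41 and 11.89, with ImHABCL6/Uchl1 replicate 1 the highest array. No member of complex V was above 0 with all arrays, and 9 of 17 were below 0 without ImHABCL6/Uchl1 replicate 2.

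Where a gene had a second probe set above the median level of all genes, the low array was mostly seen there too. Of 45 such members, 37 had the same direction of difference on both probe sets, and 40 were below the rest of the group on ImHABCL6/Uchl1 replicate 2 on both. The median distance was -0.41 on the brighter and -0.46 on the dimmer probe set.

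Genes that work around the complexes were also often lowest on ImHABCL6/Uchl1 replicate 2, which was the lowest array for 27.9% of all genes. Of 46 measured assembly factors of complexes I to V outside the symbol rule, 33 were below 0 (median -0.07), and ImHABCL6/Uchl1 replicate 2 was the lowest array for 32. Of 22 genes of the tricarboxylic acid cycle and pyruvate dehydrogenase, 15 were below 0 (median -0.08) and 18 were lowest on that array. Of 23 import, carrier and cristae proteins, 16 were below 0 (median -0.06) and 20 were lowest there. These lists were brighter than most genes (median levels 8.40, 9.69 and 10.04, against 6.32), and the 27.9% was not taken at like level. Their median distances on that array were -0.53, -0.51 and -0.50. For all genes they were -0.30 at a level of 8 to 10 and -0.28 at 10 to 11. The shares below 0 were 71.7%, 68.2% and 69.6%, against 49.4% of all genes and 65.7% of all genes at a level of 8 to 10. Without that array the medians of these lists were 0.11, 0.10 and 0.11.

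Electron carriers, ubiquinone synthesis genes and biogenesis regulators gave similar counts. Of 16 carriers and ubiquinone genes, 12 were below 0 (median -0.11), and of 21 regulators of mitochondrial transcription and biogenesis, 14 (median -0.10). ImHABCL6/Uchl1 replicate 2 was the lowest array for 11 and 13 of them. Their median distances on that array were -0.40 and -0.36, against -0.30 for all genes at a level of 8 to 10. Without that array their median differences were -0.01 and 0.02. No gene of the 5 lists was called after adjustment over all genes.

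At an unadjusted p under 0.05, 4 of the 128 genes of these lists were lower (3.12%, near the 3.85% of all genes) and 0 were higher, so the genes given next are descriptions. Dlst, the E2 subunit of the 2-oxoglutarate dehydrogenase complex, read 9.88, 9.74 and 9.89 in the ImHABCL6 arrays and 9.45, 9.17 and 9.54 in the ImHABCL6/Uchl1 arrays. It was separated between groups, by -0.45 (limma unadjusted p = 0.0146, adjusted p = 0.983), by -0.34 without replicate 2 and by -0.09 with the mean of all its probe sets. Cox11, a copper-delivery factor of complex IV, read 8.92, 9.06 and 9.21 against 8.85, 8.28 and 8.67, a difference of -0.47 (limma unadjusted p = 0.0298), or -0.31 without replicate 2 and -0.20 with the mean of its probe sets. Tfb1m, a methyltransferase of mitochondrial ribosomal RNA, read 8.95, 8.95 and 9.02 against 8.75, 8.56 and 8.72, a difference of -0.30 (limma unadjusted p = 0.0423). On the brightest probe sets of these 3 genes all ImHABCL6/Uchl1 arrays were below all ImHABCL6 arrays.

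Atpif1, the inhibitor of ATP synthase and a gene also known for its role in red-cell haem synthesis, had an array order like that of Cox6b2. It read 12.26, 12.34 and 12.70 in the ImHABCL6 arrays and 11.21, 12.20 and 11.82 in the ImHABCL6/Uchl1 arrays, a difference of -0.69 (limma unadjusted p = 0.0254). ImHABCL6/Uchl1 replicate 1 was the lowest array for Atpif1, for Cox6b2 and for the mean of the red-cell markers. With that mean as a covariate the Atpif1 difference was -0.20, and with the mean of its probe sets it was -0.45.

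Further genes with the smallest p in their lists did not reach 0.05, and all but Coq8a were nearer 0 without ImHABCL6/Uchl1 replicate 2. Coq9 and Etfdh, which serve ubiquinone synthesis and reduction, differed by -0.43 and -0.38 (-0.25 and -0.26 without that array), and Coq8a, a regulator of ubiquinone synthesis, by 0.32 (0.36 without it). With the mean of their probe sets Coq9 and Etfdh differed by -0.11 and -0.21. Pdhx of the pyruvate dehydrogenase complex differed by -0.39 (-0.22 without that array), the isocitrate dehydrogenase subunit Idh3a by -0.21 (-0.02), and Cox20, a factor for complex IV, by -0.24 (-0.21). The remaining genes serve mitochondrial biogenesis and membrane shape. The coactivator Pprc1 differed by -0.43 (-0.19 without that array) and Yy1 by -0.25 (-0.14). The fusion protein Mfn1 differed by -0.30 (-0.22), and the cristae proteins Immt and Apoo by -0.33 and -0.30 (-0.09 and -0.15). With the mean of their probe sets Idh3a and Yy1 differed by -0.04 and -0.06, and Cox20 by -0.16. Of the factors whose letters were searched in promoters, Nrf1 differed by -0.04 and Gabpa, a subunit of GABP, by 0.04.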

How the data were processed

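Total RNA was labelled with biotin and hybridised to arrays, per the labels; arrays were taken as separate mice because the series' design states 3 mice per genotype. The deposited values are log2 levels of 45101 probe sets (2.16 to 15.1), made by the authors with RMA (background correction, normalization between arrays and summary of probes) and Partek, as the submitters' processing notes list without versions. Probe sets were named through the platform annotation; 34945 had exactly 1 symbol, 932 several and 9224 none or were controls. The brightest probe set stood for each of 18193 genes, of which 18031 matched RefSeq and 0 changed symbol. The genotype difference was fitted by lmFit and eBayes of limma 3.58.1 (R 4.3.3, two-sided, Benjamini-Hochberg over all genes at 0.05), and single genes with exact permutation tests. The limma step was run on simulated data with independent noise, planted differences larger than any member's and no shift of a whole array. That check therefore does not cover small differences or a low array such as those described here. Named genes were the catalytic or defining subunits and complex IV tissue forms, up to 4 members of smallest p per complex plus 1 in the opposite direction, and 3 genes of smallest p per pathway list. Other genes given with values, such as Ndufaf5, Ndufaf6, Atp5h, Atp5k, Nrf1 and Gabpa, were chosen after their values were seen. Members and lists were chosen with earlier results of these data known. Alternatives were other probe set choices, a dim filter, 2 further normalizations, array weights, trend and robust options, a red-cell covariate, a replicate block and leaving out each array. Figures were drawn with matplotlib 3.10.9.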

Additional observations from a re-analysis of the deposited data

How the results depend on the processing

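Over all genes tested, 0 were called after limma's adjustment in each alternative run. The directions of the medians over all members and over complexes I, II, III and V were kept with the mean of all probe sets, without suffixed probe sets, without dim genes and with median centring, trend and robust options, without assembly factors and with Ndufa4 counted in complex IV. Array weights gave 3 members with an unadjusted p under 0.05 and medians of 0.03 for complexes II and IV, where 2819 of all genes (15.5%) passed that p. The red-cell covariate gave 32 such members, where 3012 of all genes passed, and medians of -0.34 over all members and -0.37, -0.44, -0.45, -0.15 and -0.39 for complexes I to V; the causes were not tested. Leaving out each array in turn, members with an unadjusted p under 0.05 ranged from 0 (without ImHABCL6 replicate 2 or 3) to 1, members below 0 from 36 (without ImHABCL6/Uchl1 replicate 2) to 81, and the complex IV median from -0.06 to 0.06. Of 49 named members, 12 changed sign with array weights and 19 when ImHABCL6/Uchl1 replicate 2 was left out. The deposited values carry no detection calls, and 6 members (2 of complex I and 4 of complex IV) lay under the median level of all genes (6.32), where directions are least certain.

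With the replicate block, 72 members were below 0 with a median of -0.13, and 1002 genes had an unadjusted p under 0.05, against 898 without it. The labels do not say that the numbers pair mice, so the numbers were not taken to pair them. The deviations of same-numbered arrays from their group means correlated at 0.43, 0.19 and -0.26 over genes. The highest correlation, 0.53, was between ImHABCL6 replicate 3 and ImHABCL6/Uchl1 replicate 2. With 3 arrays per group these correlations constrain one another, so they cannot decide whether mice were paired.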
